A study of Rattus norvegicus with 6 samples.

Results

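The mesothelial genes are 7 genes, Msln, Upk3b, Upk1b, Wt1, Lrrn4, Muc16 and Bnc1, that were picked by gene symbol from the 17833 genes of an expression table of rat pulmonary veins (PVs). All 7 were listed. Bulk RNA-seq was performed on the PVs of 3 rats with bilateral pulmonary vein banding (the BPVB group) and 3 sham-operated rats (the sham group), all wild-type Sprague-Dawley animals, to find which transcripts differ in stenosed veins. Surgery was performed at postnatal day 1 and the vein of the right upper lobe was collected at postnatal day 21. In the BPVB group, a thread was tied around the veins of both sides over a padding needle, which left a narrowed lumen. In the sham group, the chest was opened and the thread was passed and taken out again without a tie. The methods call the sham surgery the same but for banding. They describe a Gore-Tex patch laid over the gap in the pericardium when the chest was closed after banding, and do not name it among the sham steps. The values were FPKM, a gene's sequenced fragments divided by its length and by the size of that library. Behind them lay between 23439506 and 29725808 fragments per library.

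Mesothelium is the single layer of flat cells that covers the lung as visceral pleura and the heart as epicardium, and lines the cavities around them. It makes a slippery surface, and it can give rise to fibroblasts and smooth muscle cells in development and after injury. Pleura and pericardium both reach the PVs near the hilum of the lung. Among the 7 genes, Msln and Muc16 encode surface glycoproteins that bind each other. Upk3b and Upk1b encode uroplakins, membrane proteins first described in the bladder. Lrrn4 encodes a membrane protein with leucine-rich repeats. Wt1 and Bnc1 encode zinc-finger proteins that bind DNA.

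All 7 genes were lower in the PVs of the BPVB group, and for each of them the 3 BPVB libraries lay below the 3 sham libraries. Summed over the 7 genes, BPVB replicates 1 to 3 had 2.34, 2.38 and 2.28 FPKM and sham replicates 1 to 3 had 5.13, 5.73 and 4.24 FPKM. The group means were 2.33 ± 0.053 (SD, n = 3) and 5.03 ± 0.75 (SD, n = 3), so that the sham mean was 2.16 times the BPVB mean. These are low levels. The 7 genes together had 511 fragments in the BPVB group and 1089 in the sham group. Msln, the highest of them, stood at percentile 39.2 of all listed genes in the sham group and at percentile 30.7 in the BPVB group. In whole tissue, fewer cells of a type and less RNA per cell cannot be told apart. Of all listed genes, 18.2% did not overlap between the groups with the BPVB group lower and 22.2% with it higher. The share that was lower without overlap was 11.3% among the 4734 genes whose mean FPKM lay between those of Muc16 and Msln.

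**Figure D1:**
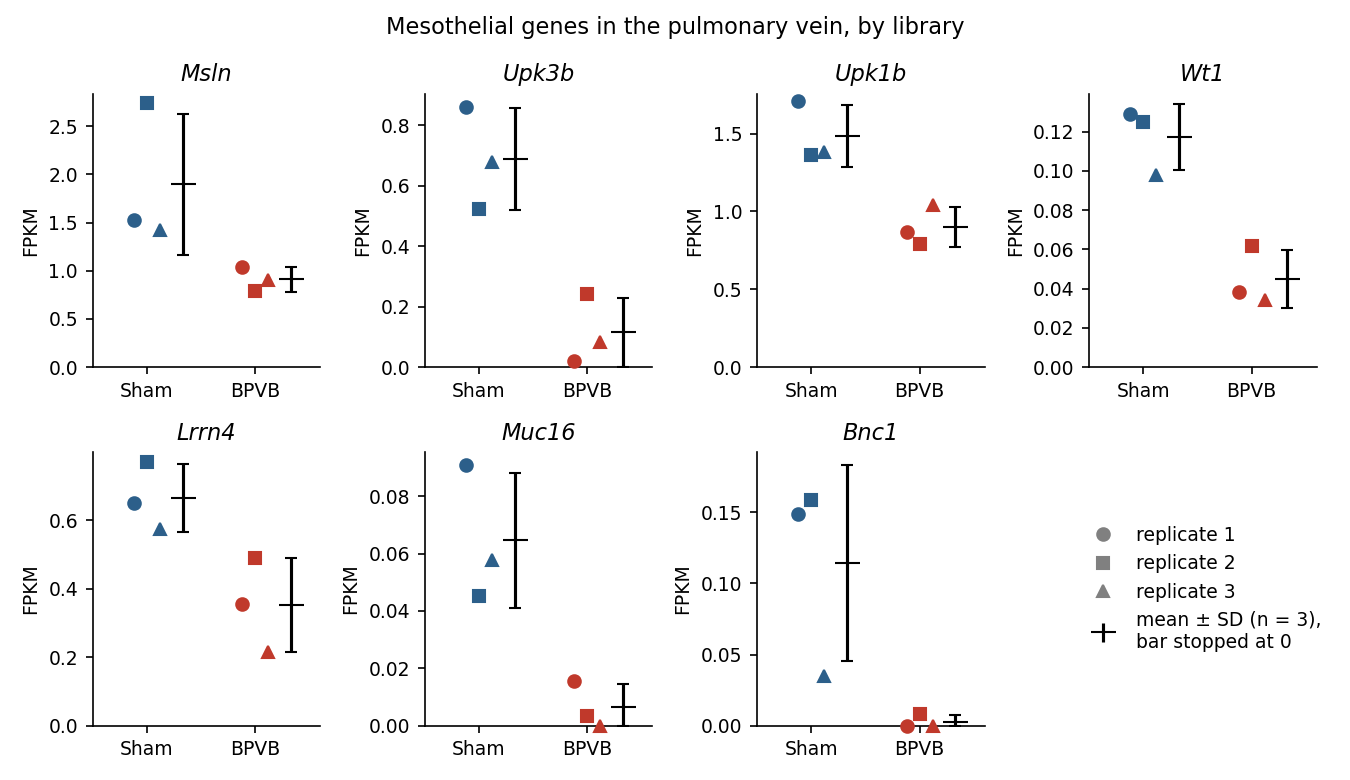
FPKM of the 7 mesothelial genes in each library (vertical axes, 1 panel per gene, each from 0), with the 3 sham libraries in blue, the 3 BPVB libraries in red, a marker shape per replicate number and the mean ± SD beside them. In every panel the 3 BPVB points lie under the 3 sham points, and the BPVB points of Muc16 and Bnc1 lie at or near 0.

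The sequence before the transcription start was available in RefSeq (build GRCr8) for 5 of the 7 genes, Upk3b, Upk1b, Wt1, Lrrn4 and Bnc1. Each window holds 250 bases before the start and 50 after it. The windows of the 3 genes among them that passed the filter on expression are shown, since these are the genes with a fitted fold change on FPKM. Capitals mark GGAATG or its reverse complement CATTCC, the letters bound by TEAD factors, searched on both strands.
Upk3b, chr12:26274191-26274490, minus strand: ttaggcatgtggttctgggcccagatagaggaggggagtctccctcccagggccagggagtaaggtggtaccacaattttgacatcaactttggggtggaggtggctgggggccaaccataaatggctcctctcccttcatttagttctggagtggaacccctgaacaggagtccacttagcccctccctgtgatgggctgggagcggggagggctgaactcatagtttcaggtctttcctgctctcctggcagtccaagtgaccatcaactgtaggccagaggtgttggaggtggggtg
Upk1b, chr11:75459131-75459430, plus strand: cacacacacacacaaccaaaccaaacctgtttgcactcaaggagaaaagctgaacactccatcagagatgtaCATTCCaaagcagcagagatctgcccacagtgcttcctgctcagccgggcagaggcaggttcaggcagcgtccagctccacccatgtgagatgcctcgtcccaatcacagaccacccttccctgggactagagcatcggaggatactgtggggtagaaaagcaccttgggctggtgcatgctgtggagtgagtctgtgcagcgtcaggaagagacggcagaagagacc
Lrrn4, chr3:140603937-140604236, minus strand: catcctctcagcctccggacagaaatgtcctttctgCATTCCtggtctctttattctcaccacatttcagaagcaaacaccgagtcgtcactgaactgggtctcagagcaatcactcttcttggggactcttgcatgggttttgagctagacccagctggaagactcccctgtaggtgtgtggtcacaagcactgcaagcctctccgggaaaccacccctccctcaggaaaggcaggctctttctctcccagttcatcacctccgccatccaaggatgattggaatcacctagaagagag
The letters were found in the windows of Upk1b and Lrrn4 and not in those of Upk3b, Wt1 and Bnc1. Of 27457 rat promoter windows of this length, 13.9% hold them. GCGTGGG, a core shared by the WT1 and EGR zinc fingers, and TATAAA, the TATA box, were in none of the 5 windows, and were in 4.59% and 14.3% of all windows. The motifs do not overlap each other in these windows. The windows differed in composition, from 52.3% G and C for Lrrn4 to 82.7% for Bnc1, beside a median of 52.3% over all windows.

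Msln (NCBI Gene 60333), which encodes mesothelin, a glycoprotein anchored in the mesothelial membrane, stood at 1.04, 0.786 and 0.905 FPKM in BPVB replicates 1 to 3 and at 1.53, 2.74 and 1.42 FPKM in sham replicates 1 to 3. The highest value was that of sham replicate 2, and the other sham libraries lay close to each other. The group means were 0.911 ± 0.13 and 1.90 ± 0.73 (SD, n = 3 each). The test was limma on log2(FPKM + 0.5), two-sided and adjusted by Benjamini-Hochberg over the 15150 genes that averaged 0.1 FPKM or more, and it gave a log2 fold change of -0.73 with a standard error of 0.20 (adjusted p = 0.024). At this level the added 0.5 makes a fold change look smaller than it is. Without BPVB replicate 2 the adjusted p was 0.074, and without BPVB replicate 3 it was 0.062.
Muc16 (NCBI Gene 315451), which encodes a large membrane mucin that carries the CA125 antigen and binds mesothelin, stood at 0.0155, 0.00353 and 0 FPKM in BPVB replicates 1 to 3 and at 0.0909, 0.0451 and 0.0579 FPKM in sham replicates 1 to 3. These values rest on 9, 2 and 0 fragments in the BPVB group and on 47, 23 and 30 in the sham group, along a gene of 21745 bases. The count of 0 allows up to 3 fragments, or 0.00464 FPKM, in that library. The mean FPKM of Muc16 lay under the filter, so that it was not in the test on FPKM. In an exact permutation test its p was 0.1, the smallest that 3 rats against 3 allow.

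Upk3b (NCBI Gene 360790) encodes a uroplakin with a single membrane span that marks mesothelium in many organs. The BPVB rats had 0.0205, 0.241 and 0.0827 FPKM, in the order of their numbers, and the sham rats 0.862, 0.524 and 0.677 FPKM. These values rest on 2, 23 and 9 fragments in the BPVB group and on 75, 45 and 59 in the sham group. BPVB replicate 2 stood above the other BPVB libraries and still under each sham library. The means were 0.115 ± 0.11 and 0.688 ± 0.17 (SD, n = 3 each). On log2(FPKM + 0.5) the fold change was -0.96 with a standard error of 0.18 (limma, adjusted p = 0.004), which understates the ratio of these means. The mean in the BPVB group was 0.167 times that in the sham group, and 0.075 times without BPVB replicate 2.
Upk1b (NCBI Gene 303924), the uroplakin of the tetraspanin family, stood at 0.869, 0.790 and 1.04 FPKM in the BPVB rats and at 1.71, 1.36 and 1.38 FPKM in the sham rats. The groups lay close together without overlap. Its window before the start was one of those that held CATTCC. The means were 0.900 ± 0.13 and 1.49 ± 0.20 (SD, n = 3 each). On log2(FPKM + 0.5) the fold change was -0.50 with a standard error of 0.13 (limma, adjusted p = 0.020). Upk1b lost its call without BPVB replicate 1 (adjusted p = 0.055), without BPVB replicate 2 (0.067) and without sham replicate 1 (0.074).
Within a library, Upk3b stood at 0.0236, 0.305 and 0.0795 times the FPKM of Upk1b in the BPVB group and at 0.503, 0.385 and 0.489 times in the sham group. This ratio does not depend on the scaling between libraries, and it was lower in each BPVB library than in each sham library. It was chosen after the values were seen, and in BPVB replicate 1 it rests on 2 fragments of Upk3b, fewer than the 3 that a count of 0 allows.

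Lrrn4 (NCBI Gene 311443) belongs to a family of neuronal leucine-rich repeat proteins and is also used as a marker of mesothelium. The window before its start also held CATTCC. The BPVB rats had 0.355, 0.490 and 0.215 FPKM and the sham rats 0.649, 0.771 and 0.574 FPKM. The gap between the groups was 0.0835 FPKM, smaller than the SD within either group (0.14 in the BPVB group and 0.10 in the sham group). The log2 fold change of -0.46 (standard error 0.16) did not pass the threshold (adjusted p = 0.061, limma). It passed without BPVB replicate 2 (adjusted p = 0.042).

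Wt1 (NCBI Gene 24883), a transcription factor needed for the epicardium and the mesothelium to form, stood at 0.0383, 0.0616 and 0.0344 FPKM in the BPVB rats and at 0.129, 0.125 and 0.0981 FPKM in the sham rats. The fragments behind these values were 7, 11 and 7 against 21, 20 and 16. The libraries of a group lay close together. Its mean was 0.0448 ± 0.015 in the BPVB group and 0.117 ± 0.017 in the sham group (SD, n = 3 each), which left it under the filter.
Bnc1 (NCBI Gene 365299) encodes basonuclin 1, known from basal keratinocytes and germ cells and used as a marker of mesothelium. Its fragments numbered 0, 1 and 0 in the BPVB rats and 17, 18 and 4 in the sham rats. This gave 0.00796 FPKM in BPVB replicate 2 and 0.149, 0.159 and 0.0349 FPKM in sham replicates 1 to 3. Each count of 0 allows up to 0.0233 FPKM in BPVB replicate 1 and 0.0210 in BPVB replicate 3. Sham replicate 3 stood well under the other sham libraries. Wt1 and Bnc1 each had a p of 0.1 in the exact permutation test, which 3 rats against 3 cannot go below.

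In all, 4 of the 7 genes passed the filter and 3 of the 7 (Msln, Upk3b and Upk1b) fell with an adjusted p under 0.05, where 14.3% of all tested genes fell and 31.5% changed in either direction. Lrrn4 was tested and not called, and Wt1, Muc16 and Bnc1 were not tested on FPKM. Those 3 were lower without overlap, as were 5.22% of the 2683 genes under the filter. None of the 7 rose in limma, also at an unadjusted p under 0.05 and in limma-voom. None passed the study's threshold for differentially expressed genes (DEGs, adjusted p under 0.05 and absolute log2 fold change above 1) in limma, where 1.03% of all tested genes passed it in the downward direction. In limma-voom 3 did so (Upk3b, Muc16 and Bnc1), beside 2.48% of the genes in that fit.
Because FPKM are whole multiples of a step, the fragments could be recovered and tested with limma-voom for all 7 genes. There 5 of the 7 were lower with an adjusted p under 0.05, beside 15.6% of the 16412 genes in that fit. They were Upk3b (log2 fold change -3.06, standard error 0.69, adjusted p = 2.6e-04), Msln (log2 fold change -0.99, standard error 0.34, adjusted p = 0.017), Lrrn4 (log2 fold change -1.0, standard error 0.38, adjusted p = 0.035), Muc16 (adjusted p = 0.0011) and Bnc1 (adjusted p = 0.014). The fitted fold change of the last pair depends on how counts of 0 are treated and is not given. Bnc1, with 1 fragment in the BPVB group and 39 in the sham group, entered that fit through the sham group alone, since the filter asked for 10 fragments in all, so that its call there and past the DEG threshold is no support for a difference. Wt1 (-1.39, standard error 0.73) had an adjusted p of 0.14 and Upk1b (-0.71, standard error 0.36) of 0.12. The median over the 7 genes was -1.39, beside 0.03 over all genes in the fit.

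Pooled over the 3 libraries of a group and divided by the library totals, the fragments of Upk1b in the BPVB group were 0.609 times those in the sham group (95% exact interval 0.489 to 0.757). For Lrrn4 the ratio was 0.523 (0.417 to 0.654), for Msln 0.482 (0.396 to 0.585) and for Wt1 0.378 (0.226 to 0.614). Upk3b, at 0.164 (0.110 to 0.237), and Muc16, at 0.0947 (0.0458 to 0.177), lay lower. Bnc1, with 1 fragment against 39, was at 0.0221 (5.45e-04 to 0.13). The intervals of Upk3b, Muc16 and Bnc1 lay under those of Upk1b, Lrrn4 and Msln. The intervals cover counting error alone, and the libraries of a group differed by more than counting error for some genes. The variance between libraries was 15 times that of counting for Msln in the sham group and 11 times for Upk3b in the BPVB group. For Upk1b and Wt1 it was between 0.39 and 1.2 times in either group.

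**Figure D2:**
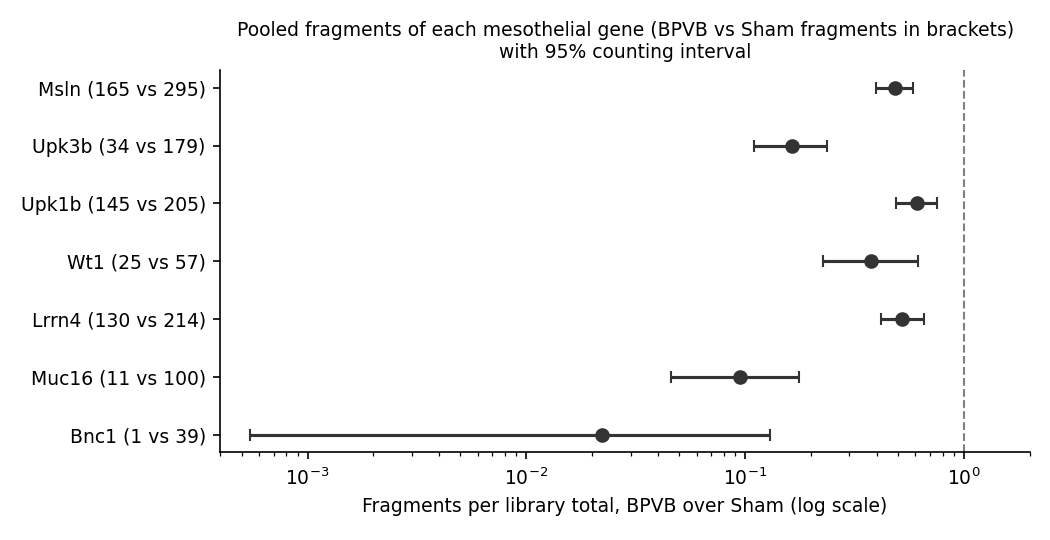
Ratio of the fragments of each mesothelial gene, BPVB over sham, after division by the library totals (horizontal log axis; points, pooled over 3 libraries per group; bars, 95% exact counting intervals; pooled fragments in brackets; dashed line, no difference). Every interval lies under 1, from 0.609 for Upk1b to 0.0221 for Bnc1.

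The order of the 7 genes by mean FPKM was Msln, Upk1b, Upk3b, Lrrn4, Wt1, Bnc1 and Muc16 in the sham group. Upk3b (0.688 ± 0.17) and Lrrn4 (0.665 ± 0.10) differed by less than the larger SD of the pair, as did Msln and Upk1b, Wt1 (0.117 ± 0.017) and Bnc1 (0.114 ± 0.069), and Bnc1 and Muc16 (0.0647 ± 0.024). In the BPVB group the order was Msln, Upk1b, Lrrn4, Upk3b, Wt1, Muc16 and Bnc1. There Upk3b and Wt1, and Muc16 and Bnc1, differed by less than that. Msln (0.911 ± 0.13) and Upk1b (0.900 ± 0.13) had nearly the same level and made up between 66.2% and 85.4% of the summed FPKM, beside 63.3% to 71.6% in the sham group. Within a group the genes did not follow a single order of libraries. Sham replicate 2 had the highest Msln, Lrrn4 and Bnc1 of the sham group and the lowest Upk3b, Upk1b and Muc16. BPVB replicate 2 had the highest Upk3b, Wt1, Lrrn4 and Bnc1 of the BPVB group and the lowest Msln and Upk1b. Some of these ranks rest on a difference of few fragments. For Bnc1 it was 1 fragment in BPVB replicate 2 against 0 in BPVB replicates 1 and 3, and 18 in sham replicate 2 against 17 in sham replicate 1. For Upk1b it was 62 in sham replicate 2 against 64 in sham replicate 3.
In the deposited gene ontology (GO) annotation the 7 genes share little. No term was carried by more than 2 of them. Wt1 and Bnc1 share terms on transcription, Msln and Muc16 the extracellular space, and Upk1b and Wt1 the differentiation of epithelial cells, a term of 74 listed genes.
Across the 6 libraries, 751 of 12155 genes that averaged 1 FPKM or more had a Pearson r of at least 0.95 with the mean z score of the 4 mesothelial genes that passed the filter, a measure that mostly separates the groups. The closest were Mpst (r = 0.9994), Fbxo40 (0.9978), Ndufa3 (0.9959), Ak4 (0.9957) and Mrfap1 (0.9954).

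Other genes that mesothelium expresses, but shares with other cells, did not move as a block. Of 20 such genes, 17 passed the filter, 8 rose, 3 fell and 6 did not pass the test, with a median log2 fold change of 0.60 beside 0.02 over all tested genes. Of all tested genes, 17.2% rose. Gpm6a, which encodes a membrane glycoprotein also found in neurons, fell from 3.59 ± 0.30 to 2.25 ± 0.27 FPKM (SD, n = 3 each; log2 fold change -0.57, adjusted p = 0.0048, limma). The BPVB rats had 2.56, 2.11 and 2.08 FPKM and the sham rats 3.43, 3.93 and 3.41 FPKM, without overlap. Efemp1, a matrix protein gene (-0.36), and Podxl, which encodes the sialomucin podocalyxin of endothelium and mesothelium (-0.27), also fell. Rspo1, which encodes a Wnt agonist, had a log2 fold change of -0.37 (adjusted p = 0.19). Nkain4 stood at 15.3 FPKM in the BPVB group and 14.7 in the sham group (adjusted p = 0.52), and Prg4, which encodes the lubricant lubricin, at 4.69 and 4.64 (adjusted p = 0.94). Calb2, the calretinin gene used to stain mesothelium, had 3 fragments in the BPVB group and 2 in the sham group.
The genes that rose included the keratin genes Krt7, Krt8 and Krt19, and 6 of the 8 passed the DEG threshold, as did 2.24% of all tested genes in the upward direction. Krt7 rose from 0.867 to 5.96 FPKM (log2 fold change 2.29, adjusted p = 1.9e-04, limma), Krt8 from 1.05 to 2.66 (1.03) and Krt19 from 2.14 to 4.73 (0.99). Where the sham level is low, the added 0.5 makes these fold changes look smaller than the ratios of the means. Pdpn, which encodes podoplanin of mesothelium, lymphatic vessels and alveolar type 1 cells, rose from 3.30 to 15.1 FPKM (2.04), and Anxa8 from 0.407 to 3.95 (2.32). Slpi and C3, genes of secreted defence proteins, rose by 1.45 and 1.06 on the log2 scale. Aldh1a2, which makes retinoic acid in epicardium and mesothelium, rose from 9.17 to 17.8 FPKM (0.92, adjusted p = 5.0e-05).

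**Figure D3:**
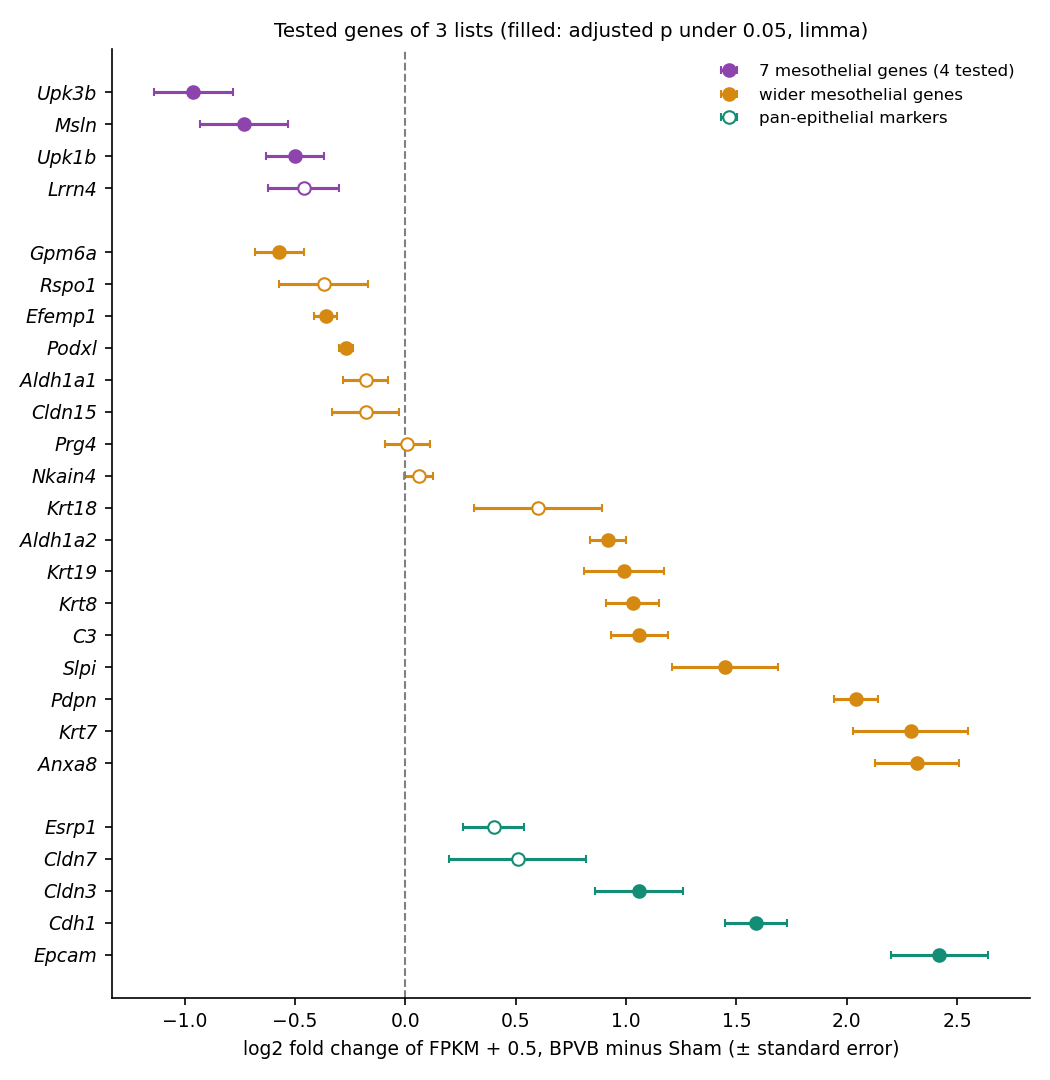
Log2 fold change of FPKM + 0.5, BPVB minus sham, with its standard error (horizontal axis) for the tested genes of 3 lists; filled points have an adjusted p under 0.05 (limma). The 4 tested mesothelial genes lie left of 0, from -0.96 to -0.46, the wider list runs from -0.57 for Gpm6a to 2.32 for Anxa8, and the pan-epithelial markers lie right of 0.

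Markers of lung epithelium moved with these keratins. Of 8 pan-epithelial markers, 5 passed the filter and 3 rose (Epcam, Cdh1 and Cldn3), and none fell in limma, also at an unadjusted p under 0.05 and in limma-voom. Cldn3, with 3 fragments in the sham group and 76 in the BPVB group, passed the filter through the BPVB group alone, so that its call is no support for a difference. The summed FPKM of the 8 was between 7.76 and 9.25 in the BPVB group and between 0.854 and 1.58 in the sham group. Cldn4 and Elf3 were at 0 in all sham libraries, beside only 13 and 7 fragments in the BPVB group. Cldn4 was also at 0 in BPVB replicate 1. All 7 alveolar type 2 markers rose, with a summed FPKM between 1120 and 1170 in the BPVB group and between 218 and 227 in the sham group. Lyz2, which macrophages also express, made up the largest share of both sums, with a mean of 592 FPKM in the BPVB group and 163 FPKM in the sham group. Of the 6 alveolar type 1 markers 5 rose, and Hopx, which other cells also express, fell from 70.9 to 59.3 FPKM (log2 fold change -0.26, adjusted p = 0.002, limma). Their summed FPKM was 151 to 160 against 84.3 to 88, and Hopx made up most of the sum in the sham group. Of the 5 airway markers, Scgb1a1 rose and Tppp3 fell, and Scgb3a2, Foxj1 and Cyp2f4 had at most 4 fragments in a group. The part of lung tissue in the values of the mesothelial genes was not tested.
Markers of other cell types moved in both directions. The summed FPKM of 4 cardiomyocyte markers was between 10200 and 10600 in the BPVB group and between 14100 and 14300 in the sham group, where 3 fell and Nppa rose. All 4 smooth muscle markers fell, with sums of 3800 to 3840 against 4130 to 4210. Of 4 endothelial markers 2 fell (sums of 805 to 816 against 890 to 894), and of 4 fibroblast markers 2 rose and 2 fell (2230 to 2240 against 2120 to 2130). Of 4 adipocyte markers 3 rose (26.6 to 28.6 against 7.16 to 10.9), and all 4 macrophage markers rose (39.9 to 42.6 against 23.4 to 25.3). No marker of these 6 types was at 0 in all libraries of a group.

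**Figure D4:**
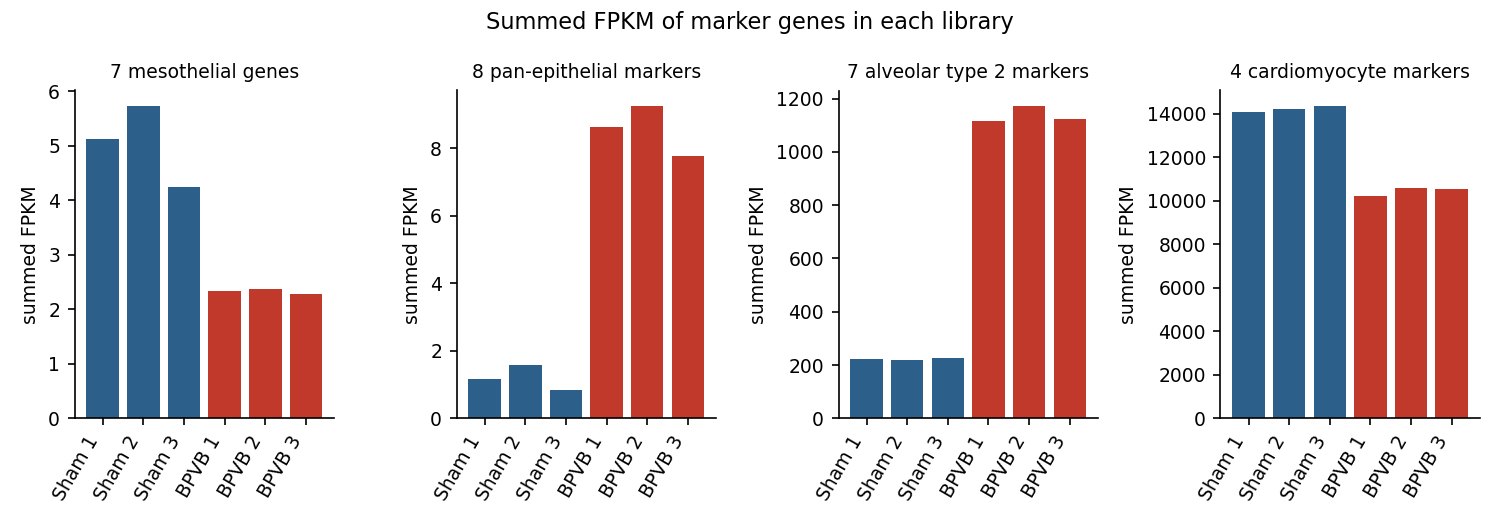
Summed FPKM in each library (vertical axes from 0) for the 7 mesothelial genes, 8 pan-epithelial markers, 7 alveolar type 2 markers and 4 cardiomyocyte markers; blue bars are sham and red bars BPVB libraries. The mesothelial sum is between 2.28 and 2.38 in the BPVB group and between 4.24 and 5.73 in the sham group, while both epithelial sums are higher in the BPVB group, with Lyz2 the largest term of the alveolar type 2 sum.

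Of 8 other transcription factors of the epicardium, which other cells of the vein and its myocardial sleeve also express, all passed the filter and 2 rose, a share near the 17.2% of all tested genes that rose. Tbx20, which is also active in cardiomyocytes, rose from 24.3 to 54.5 FPKM (log2 fold change 1.15, adjusted p = 2.0e-07, limma) and Gata4 from 14.1 to 20.5 (0.52, adjusted p = 1.4e-04). None fell in limma, while 1 had an unadjusted p under 0.05 and an adjusted p under 0.05 in limma-voom, Nr2f2 (-0.10). Tcf21 (0.25, adjusted p = 0.085), Tbx18 (-0.12, adjusted p = 0.53), Gata5, Gata6 and Hand2 did not pass the test. The median was 0.20 beside 0.02 over all tested genes.
Relatives of the 7 genes moved in both directions. Of 16 relatives considered, 11 were in the table and 9 passed the filter, with a median log2 fold change of 0.01. At these low levels the added 0.5 makes the fold changes look smaller than the ratios of the means. Lrrn1 and Lrrn2, the paralogs of Lrrn4, fell from 0.836 to 0.303 FPKM (-0.74, adjusted p = 0.010) and from 0.866 to 0.376 (-0.65, adjusted p = 0.0097), while Lrrn3 stood at 1.66 against 1.01 (adjusted p = 0.060, limma). Of the membrane mucins, Muc13 fell from 0.607 to 0.192 FPKM (-0.68, adjusted p = 0.009) and Muc1, of epithelial surfaces, rose from 0.292 to 2.30 (1.82, adjusted p = 6.6e-05). Bnc2, the paralog of Bnc1, was at 0.688 and 0.666 FPKM (adjusted p = 0.91), and Mslnl, a relative of Msln, at 0.114 and 0.110 (adjusted p = 0.97). The uroplakin genes Upk3bl1 and Upk2 had 27 and 2 fragments in the BPVB group and 6 and 0 in the sham group.
Mesothelial cells also secrete hyaluronan and lubricin and clear fibrin. Of 9 genes for these tasks, all of which passed the filter, 5 rose and none fell in limma, also at an unadjusted p under 0.05 and in limma-voom, with a median of 0.22. Plau (0.61) and Plat (0.22), which encode the plasminogen activators, rose, as did the thrombomodulin gene Thbd (0.32). The hyaluronan synthase gene Has1 rose from 0.978 to 1.58 FPKM (0.48, adjusted p = 0.027, limma), and it had an adjusted p of 0.084 in limma-voom. Has2, Has3 and Tfpi did not pass the test.
Of 10 genes of mesenchymal transition, the change by which mesothelial and other cells take on a fibroblast form, 6 rose and 2 fell, with a median of 0.28, where 17.2% of all tested genes rose and 14.3% fell. Snai1, which represses epithelial genes, rose from 6.40 to 10.9 FPKM (0.71, adjusted p = 0.0019, limma). Fn1 (0.53), Cdh2 (0.46), Vim (0.34), Zeb2 (0.30) and Tgfb1 (0.25) rose as well. Zeb1 (-0.18) and Acta2 (-0.18) fell, and Snai2 and Twist1 did not pass the test. In the sham group their levels ran from 2.90 FPKM for Snai2 to 1680 FPKM for Acta2, where Msln stood at 1.90 FPKM.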

How the data were processed

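Bulk RNA-seq of the PVs of 3 BPVB and 3 sham rats was analysed. Groups and replicate numbers were taken from the sample titles, and the column names (P and S with a number) were matched to them. The 7 genes, the other lists and the tests were chosen with earlier results of these data known. Per the methods, the authors used fastp for trimming, HISAT for mapping and a count per gene, and the deposited table holds FPKM for each rat. The paper names HTSeq-count and the VAHTS Universal V6 kit, whereas the labels name the NEBNext Ultra kit and the submitters' processing notes list HISAT2 2.0.5, StringTie 1.3.3b, featureCounts 1.5.0-p3 and DESeq2 1.20.0. The genome build, the annotation version and the strand setting are not given in the sources used here.

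Fragments were recovered as the smallest whole numbers in the ratio of a gene's values between libraries that also gave a whole gene length, which succeeded for 17832 of 17833 genes. Library totals were the most common greatest common divisor of length times total over neighbouring genes with at least 50 fragments. A count of 0 was taken to allow up to 3 fragments. Whether each fragment is a separate molecule is unknown. Limits and 95% intervals cover counting error only.

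The groups were compared with limma 3.58.1 in R 4.3.3 (lmFit, eBayes with trend) on log2(FPKM + 0.5) for genes that averaged 0.1 FPKM or more, two-sided, with Benjamini-Hochberg adjustment over all tested genes. Fold changes are on that scale unless limma-voom is named, which used genes with at least 10 fragments in all. Each of the 7 genes was also compared by an exact permutation test, two-sided. The genes named are the 7, those of the lists and the 5 closest in pattern. The list counts include 1 gene that is not reported here. Alternatives were pseudocounts of 1 and 0.1, no filter and a filter at a mean of 1 FPKM, median-of-ratios, TPM and quantile scaling, a replicate block, robust eBayes, limma-voom and leaving out each library. The procedures were tested on simulated data. All else was computed with scipy 1.17.1, pandas 2.3.3 and numpy 2.4.6 and drawn with matplotlib 3.10.9, in Python 3.11.15. The limma and limma-voom p-values rest on the spread between these 3 rats a group, moderated with that of the other genes.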

Additional observations from a re-analysis of the deposited data

How the results depend on the processing

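The log2 fold changes of Msln, Upk3b, Upk1b and Lrrn4 stayed below 0 in all fits that held them, and in the no-filter fit, where all 7 genes were tested, all 7 were below 0 and 3 were called. Upk3b kept its call in each fit that tested it. The number of the 7 genes called lower was 3, and it was 5 in limma-voom, 4 with quantile scaling, 2 with the filter at a mean of 1 FPKM (where only Msln and Upk1b were tested) and 2 to 3 with each library left out. The number past the DEG threshold was 0 of the 4 tested. It was 1 with a pseudocount of 0.1, with TPM and with quantile scaling (Upk3b in each), 3 in limma-voom and 0 to 1 with each library left out. Both limma-voom counts include Bnc1, which entered that fit through the sham group alone, so that its call there is no support for a difference. The call gained with quantile scaling was Lrrn4 (adjusted p = 0.028). Epicardial factors called lower were 0, and 1 with median-of-ratios scaling and in limma-voom, and those called higher were 2 to 4 with each library left out, with 4 without sham replicate 1. Relatives called lower were 0 with the filter at a mean of 1 FPKM, where those 3 genes are not tested, and those called higher were 2 with the replicate block, 2 in limma-voom and 1 to 2 with each library left out. Mesenchymal transition genes called lower were 1 to 2 with each library left out. Where a cause is not named, the cause was not tested. All 63 recomputed ratios of mean FPKM of the 7 genes stayed under 1. With a library left out this was fixed in advance, since the groups did not overlap. The ratios also stayed within 1 SD of the ratio. That SD was wider than the ratio itself for Upk3b (0.17 against 0.167), Muc16 (0.13 against 0.0981) and Bnc1 (0.043 against 0.0232), so that it could hardly show a move. The groups overlapped for none of the 7 genes under median-of-ratios, TPM or quantile scaling. The ratio of Upk3b was 0.075 without BPVB replicate 2, that of Muc16 was 0.0273 without BPVB replicate 1 and 0.147 without BPVB replicate 3, and that of Bnc1 was 0.0348 without BPVB replicate 1 or 3 and 0 without BPVB replicate 2. Samples with the same replicate number did not deviate together (correlations of 0.025, 0.014 and 0.015). This gave no sign that the numbers pair the rats, but with 3 rats a group it cannot exclude it. With the replicate block 3 of the 7 genes were called lower. Depth limits Wt1, Muc16 and Bnc1 most, with at most 47 fragments in a library.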
